A study of Mus musculus with 8 samples.

Results

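The genes described are the nuclear-encoded subunits of respiratory chain complexes I to IV in mouse dorsal skin, taken from a list of 54 named genes: 29 of complex I, 4 of complex II, 8 of complex III and 13 of complex IV. A gene counted as measured where the array annotation gave at least 1 probe set its symbol alone, and the probe set with the highest mean over the 8 arrays stood for it. This left 52 of the 54 genes, out of 18193 genes measured in all. Ndufs6 was left out because its probe set carries the symbols of 2 genes, and Cox7b because it had no probe set with 1 symbol. The 52 genes were 28 of complex I, 4 of complex II, 8 of complex III and 12 of complex IV. Ndufa4, named after complex I, is now counted as a complex IV subunit and was placed there.

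The arrays come from female mice of the hairless strain Hos:HR-1, aged 10 weeks at sampling, after 1 week on the purified diet AIN-93G (control, 4 arrays) or on that diet with fish scale collagen hydrolysate, peptides cut from collagen, at 2.0 g per 100 g (collagen, 4 arrays). Both groups came from 16 mice of 1 strain and sex, 8 per diet, housed 4 per cage, and the labels do not say which mice and cages gave the arrays. The labels call the arrays of a diet biological replicates. Whole dorsal skin was powdered before RNA extraction, so each value is a sum over epidermis, dermis, fat and the muscle sheet beneath. In such bulk samples, fewer cells of a type and less RNA per cell cannot be told apart.

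Complexes I to IV sit in the inner mitochondrial membrane and pass electrons from NADH and succinate to oxygen. Complex I takes electrons from NADH, complex II (succinate dehydrogenase, also an enzyme of the citric acid cycle) from succinate, complex III hands them to cytochrome c, and complex IV gives them to oxygen. Complexes I, III and IV move protons across the membrane as they do so, and ATP synthase uses the resulting gradient. Most subunits are encoded in the nucleus, and their genes are known targets of the transcription factors NRF1, GABP, YY1 and the estrogen-related receptors. Several complex IV subunits exist as a form found in most tissues and a form of heart and skeletal muscle, such as Cox7a2 and Cox7a1 or Cox8a and Cox8b.

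The promoters of the subunit genes were read for letters of these factors. Whether the letters relate to how the genes varied over the arrays was not tested. RefSeq promoters (build GRCm38.p6, 250 bases before to 50 after each gene's start) were at hand for 42 of the 52 genes and were searched on both strands, and shares are of genes, a gene with several promoters being counted once if any held the letters. The NRF1 letters (GCGCA, any base, then GCGC) lay in 7 of the 42 (16.7%), against 5.19% of all 27025 genes with a promoter. The GABP letters CCGGAAG lay in 10 (23.8%, against 9.93%) and the YY1 letters AAGATGGCG in 4 (9.52%, against 1.64%). The estrogen-related receptor letters AAGGTCA lay in 2 (4.76%, against 5.38%), and CAGCTG, an E-box of the kind bound by muscle regulators, in 4 (9.52%, against 18.3%). No match of one motif overlapped a match of another. A match is a description of letters and not a site.

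The 120 bases just before the start are printed for 4 genes with NRF1 letters in that window, which stand in capitals, because they span 3 complexes and include the gene that ran most strongly against the others, Cox6a1. The windows of Sdha (chr13:74350241-74350360), Sdhd (chr9:50603850-50603969), Ndufa5 (chr6:24527691-24527810) and Cox6a1 (chr5:115348959-115349078) all lie on the minus strand and read 5′ to 3′:
Sdha: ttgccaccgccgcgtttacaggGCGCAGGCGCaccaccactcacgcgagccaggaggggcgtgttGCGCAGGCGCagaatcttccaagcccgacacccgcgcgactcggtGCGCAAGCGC
Sdhd: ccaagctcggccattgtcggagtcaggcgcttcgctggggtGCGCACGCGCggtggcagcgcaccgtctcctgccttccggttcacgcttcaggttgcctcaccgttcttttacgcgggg
Ndufa5: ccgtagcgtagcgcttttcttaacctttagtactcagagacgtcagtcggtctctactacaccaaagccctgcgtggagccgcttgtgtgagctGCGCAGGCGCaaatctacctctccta
Cox6a1: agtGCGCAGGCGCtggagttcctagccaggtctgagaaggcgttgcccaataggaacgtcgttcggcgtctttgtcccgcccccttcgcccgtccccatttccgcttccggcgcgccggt
Sdha holds 3 matches in this window and the other genes 1 each. The muscle-type subunits Cox8b (chr7:140900447-140900566, minus strand) and Cox7a1 (chr7:30184051-30184170, plus strand) are printed beside them because they varied most over the arrays, with the E-box letters in capitals:
Cox8b: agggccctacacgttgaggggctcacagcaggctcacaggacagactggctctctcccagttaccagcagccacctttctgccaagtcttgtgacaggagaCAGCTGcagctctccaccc
Cox7a1: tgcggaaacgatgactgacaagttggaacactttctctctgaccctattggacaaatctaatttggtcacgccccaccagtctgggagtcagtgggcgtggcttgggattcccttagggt
The Cox8b window holds 1 match, and the letters CAGCTG are not in the Cox7a1 window.

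Each array gave 45101 probe set values on a log2 scale, from 6.56013 to 14.4637, and the array medians lay between 8.19289 and 8.19322. The deposited values hardly differed between arrays: the median range of a probe set over the 8 arrays was 7.36e-06, and the sources used here do not say why. For this reason no difference is given as a fold change. Differences are given in millionths of a deposited log2 unit and in units of the within-diet standard deviation (SD) of the gene. Markers of keratinocytes (7 of 7 measured, levels from 10.76 to 14.39) and of dermal fibroblasts (6 of 6, from 11.19 to 14.21) lay above the median level of all probe sets, 8.193. With 4 arrays per diet, their number limits how precise any value can be.

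The levels of the 52 genes ran from 8.456 (Cox7c) to 13.95 (Uqcrb), with a median of 12.38, against a median of 8.87 over all genes. Levels ran from 11.07 to 13.52 in complex I (median 12.29), from 10.48 to 12.71 in complex II (11.67), from 12.01 to 13.95 in complex III (12.48) and from 8.456 to 13.92 in complex IV (13.31). The ranges of the complexes overlap, and because probe sets bind their targets unequally, no order of the genes or complexes is read from them. The range over arrays differed far more than the level, from 2.8e-07 for Ndufa1 to 0.00935 for Cox7a1, with a median of 1e-05 against 9.16e-06 over all genes. Only Cox7a1 and Cox8b (0.00462), both muscle-type subunits, reached 1e-03, which put them at the 99.1 and 98.3 percentiles of all genes. Across the 52 genes, which are not independent, the range was smaller where the level was higher (Pearson r = -0.706, Spearman rho = -0.741 between the level and log10 of the range).

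On the deposited scale 49 of the 52 subunit genes (94.2%) had a lower mean with collagen, against 47.1% of all genes. After each array was centred on its median 2 of 52 were lower, Cox7a1 and Cox8b, against 5.38% of all genes. The array medians differed by up to 0.000331, with collagen 1 lowest, which is more than the range of 49 of the 52. Centring therefore shifts most genes alike, and the median difference over all genes was then 0.494 SD. After quantile normalization 3 of the 10 subunit genes that still varied were lower, against 35.6% of all genes that still varied. None of the 52 passed the threshold: limma's Benjamini-Hochberg adjusted p was 0.999 for each, and 0 of 18193 genes passed (0.0%). At an unadjusted limma p under 0.05 stood 2 subunit genes, Ndufa3 and Uqcr10, both lower with collagen, against a background of 1.23% of all genes lower and 2.26% higher, 3.49% in all. Ndufa3 was the only subunit gene whose diets did not overlap, against 0.671% of all genes lower without overlap (1.35% were higher without overlap). As deposited, the median difference was -0.629 SD over the 52 genes and 0.0517 SD over all genes. Among the 1857 genes at or above the 10th percentile of the subunit genes' levels, the median was 0.186 SD and 40.1% were lower.

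The count of lower genes rested in part on 2 arrays. Control 4 was the highest array in 35 of the 52 genes (67.3%, against 12.5% of all genes) and collagen 1 the lowest in 28 (53.8%, against 17.6%). Without control 4 the count was 38 of 52 and the median difference -0.315 SD. Without collagen 2 the median difference was -1.14 SD, and without control 1 it was -1.12 SD. Without both control 4 and collagen 1, an alternative chosen after the data were seen, 30 of 52 genes were lower and the median was -0.128 SD.

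**Figure D1:**
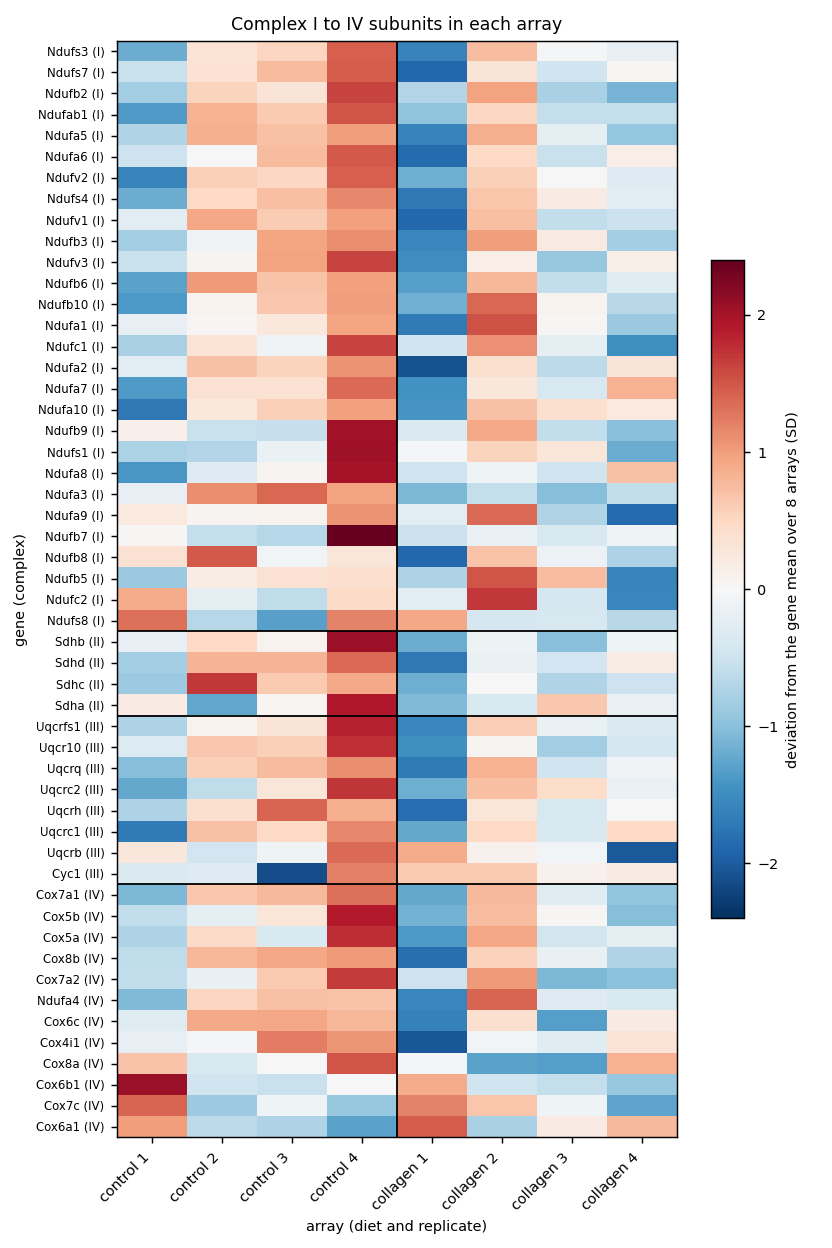
Deviation of each subunit gene from its mean over the 8 arrays, in SD of that gene (colour), for the 52 genes (rows, grouped by complex and ordered by their correlation with the other genes) and the 8 arrays (columns). The control 4 column is red and the collagen 1 column blue in most rows, while the Cox6a1 row at the bottom has the opposite colours.

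Complex I genes all lay on the same side. Of the 28 measured, 28 were lower with collagen as deposited, with a median of -0.558 SD (6 core subunits -0.486, 22 accessory subunits -0.566). After median centring the complex I score was higher with collagen by 0.447. The centred scores given here and for complexes II, III and IV carry the same shift of array medians and are not separate results. Ndufa3, a small accessory subunit of the membrane arm, lay at -0.391, 2.21, 2.7 and 1.92 millionths from its mean in control arrays 1 to 4 and at -2.11, -1.14, -2.0 and -1.18 in collagen arrays 1 to 4. Each collagen array lay below each control array, with control 1 nearest to them. The difference was -3.22 ± 0.738 millionths (SE, n = 4 arrays per diet; -3.10 SD; limma adjusted p = 0.999; exact permutation p = 0.0286, two-sided and unadjusted, the smallest that 4 against 4 arrays allow). A further Ndufa3 probe set at a level of 13.01 gave -3.08 SD (exact permutation p = 0.0286), while the dim probe set at 7.783 gave -0.16 SD.

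Ndufv1, the core subunit that binds NADH, lay at -1.08, 3.91, 2.59 and 4.15 millionths in the control arrays and at -7.92, 3.05, -2.51 and -2.21 in the collagen arrays. Collagen 2 lay among the controls and collagen 1 far below all others, so the diets overlap (-1.33 SD, exact permutation p = 0.0857). Further Ndufv1 probe sets gave -0.366 SD at a level of 11.64 (exact permutation p = 0.629) and -0.945 SD at 12.21 (exact permutation p = 0.229). Ndufb8, an accessory subunit often used as a marker of assembled complex I, lay at 0.619, 2.56, -0.111 and 0.499 millionths in the control arrays and at -3.25, 1.19, -0.231 and -1.27 in the collagen arrays. Its diets overlap as well, with control 2 highest and collagen 1 lowest (-1.78 ± 1.08 millionths, -1.15 SD, exact permutation p = 0.171). A further Ndufb8 probe set, at a level of 8.378, went the other way (0.678 SD, exact permutation p = 0.371) and did not follow the first (r = -0.191). The other 25 complex I genes lay between -1.18 SD (Ndufv3) and -0.0305 SD (Ndufb5). Among the core subunits, which hold the path from NADH towards ubiquinone, Ndufs7 lay at -1.11 SD, Ndufs3 at -0.527 SD and Ndufs1 at -0.191 SD.

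Complex II had the largest median difference of the complexes, -1.32 SD over 4 genes, which is a small list, and after median centring its score was higher with collagen by 0.32. Sdhd, a membrane anchor subunit, lay at -29.2, 29.3, 29.2 and 48.5 millionths in the control arrays and at -61.9, -5.65, -16.7 and 6.35 in the collagen arrays. Control 1 lay below 3 of the collagen arrays, so the diets overlap (-38.9 ± 21.6 millionths, -1.22 SD, exact permutation p = 0.171). A further Sdhd probe set, at a level of 8.614, gave -0.271 SD (exact permutation p = 0.771) and did not follow the first (r = -0.394). Sdhc, the other membrane anchor, lay at -30.2, 58.4, 21.8 and 31.0 in the control arrays and at -40.0, 0.449, -24.6 and -16.7 in the collagen arrays. Again it was control 1 that fell among the collagen arrays (-1.41 SD, exact permutation p = 0.114), and without control 1 the difference was -3.23 SD.

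Sdhb, the iron-sulfur subunit, lay at -1.11, 2.7, 0.450 and 11.6 millionths in the control arrays and at -6.70, -0.690, -5.66 and -0.550 in the collagen arrays. Control 4 stood far above the other arrays and control 1 within the collagen range (-1.47 SD, exact permutation p = 0.0857). Sdha, the flavoprotein that oxidises succinate, lay at 0.239, -1.47, 0.0588 and 2.28 millionths in the control arrays and at -1.25, -0.441, 0.769 and -0.181 in the collagen arrays. Its lowest array was a control (-0.552 ± 0.869 millionths, -0.446 SD, exact permutation p = 0.571), and without control 4 the difference was 0.131 SD. A further Sdha probe set, at a level of 11.42, gave -1.69 SD (exact permutation p = 0.0857) and correlated at r = 0.383 with the first over the 8 arrays.

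**Figure D2:**
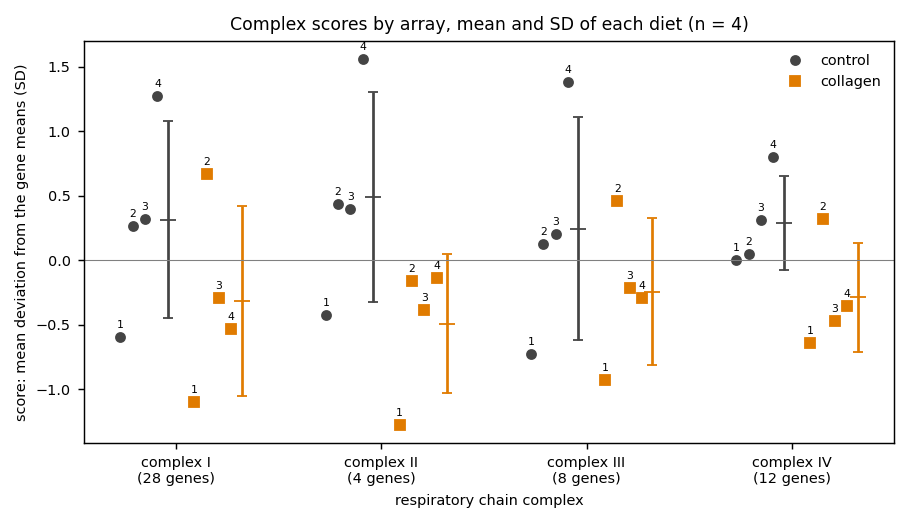
Score of each complex in each array, the mean over its measured genes of their deviation in SD (vertical axis), with control arrays as grey circles, collagen arrays as orange squares, the replicate number beside each, and the mean with SD of the 4 arrays of a diet. In all 4 complexes control 4 is the highest array and collagen 1 the lowest, and the diets overlap. As deposited the collagen means lie lower, and after median centring they lie higher.

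Complex III held the other gene at an unadjusted p under 0.05. Uqcr10, a small subunit of the complex, lay at -7.17, 14.3, 12.7 and 38.5 millionths in the control arrays and at -32.4, 1.26, -18.4 and -8.90 in the collagen arrays. The diets overlap only through control 1, which lay below collagen 2 (-29.2 ± 11.3 millionths, -1.75 SD, exact permutation p = 0.0571, limma adjusted p = 0.999). Its unadjusted limma p lay between 0.0595 and 0.0938 without each of control 2, 3 and 4 and collagen 1, 3 and 4 in turn. A further Uqcr10 probe set at 10.1 followed it (r = 0.945) and gave -0.893 SD (exact permutation p = 0.286).

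Uqcrh, the hinge protein beside cytochrome c1, lay at -5.25, 2.73, 9.97 and 6.27 millionths in the control arrays and at -13.1, 2.01, -2.74 and 0.080 in the collagen arrays. Control 1 was the second lowest array here, and the diets overlap (-6.86 ± 4.50 millionths, -1.04 SD, exact permutation p = 0.2). Cyc1, cytochrome c1 itself, was the only complex III gene with a higher mean with collagen. It lay at -0.390, -0.350, -2.41 and 1.38 millionths in the control arrays and at 0.710, 0.720, 0.110 and 0.230 in the collagen arrays. The collagen arrays lay close together inside the range of the controls (0.885 ± 0.791 millionths, 0.791 SD, exact permutation p = 0.429), and the difference was 1.9 SD without control 4 and 0.335 SD without control 3. Of the 8 genes, 7 were lower as deposited (median -0.618 SD), and after median centring the complex III score was higher with collagen by 0.461.

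In complex IV, 10 of 12 genes were lower as deposited (median -0.732 SD), Cox6a1 (0.849 SD) and Cox7c (0.228 SD) were higher, and after median centring the score was higher with collagen by 0.265. Cox8b, the muscle-type form of subunit VIII, lay at -986, 1300, 1500 and 1680 millionths in the control arrays and at -2940, 896, -285 and -1170 in the collagen arrays. Control 1 lay among the collagen arrays and the other controls above all of them (-1750 ± 983 millionths, -1.21 SD, exact permutation p = 0.143). Cox8a, the form of most tissues, lay at 1.34, -0.767, 0.0225 and 3.0 in the control arrays and at -0.0675, -2.56, -2.62 and 1.64 in the collagen arrays. Its diets overlap broadly (-1.80 ± 1.29 millionths, -0.962 SD, exact permutation p = 0.229), and over the 8 arrays it did not follow Cox8b (r = -0.0221).

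Cox7a1, the muscle-type form of subunit VIIa, lay at -3970, 2400, 2870 and 4870 millionths in the control arrays and at -4480, 2840, -1050 and -3480 in the collagen arrays. Control 1 lay near the bottom and collagen 2 near the top, so the diets overlap (-3080 ± 2420 millionths, -0.868 SD, exact permutation p = 0.286). Cox7a2, its counterpart in most tissues, lay at -0.145, -0.045, 0.155 and 0.415 in the control arrays and at -0.125, 0.255, -0.265 and -0.245 in the collagen arrays. Here collagen 2 ranked second of the 8 arrays (-0.190 ± 0.273 millionths, -0.778 SD, exact permutation p = 0.286), and the correlation with Cox7a1 was r = 0.837. The differences of both muscle-type subunits, which did not pass the test, kept their sign with each array left out (from -1.85 to -0.566 SD for Cox7a1 and from -1.88 to -0.908 SD for Cox8b), after median centring (-0.858 and -1.22 SD) and after quantile normalization (-0.889 and -1.16 SD).

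Cox6c, a subunit with 1 form, lay at -0.178, 0.552, 0.563 and 0.483 millionths in the control arrays and at -0.977, 0.232, -0.798 and 0.122 in the collagen arrays. The 3 other controls lay above all collagen arrays and control 1 among them (-1.40 SD, exact permutation p = 0.114). The probe set used decides its direction, since a further probe set at 12.43 gave 0.416 SD (exact permutation p = 0.486). Moving Ndufa4 to complex I gave 29 of 29 lower there and left 9 of 11 in complex IV.

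**Figure D3:**
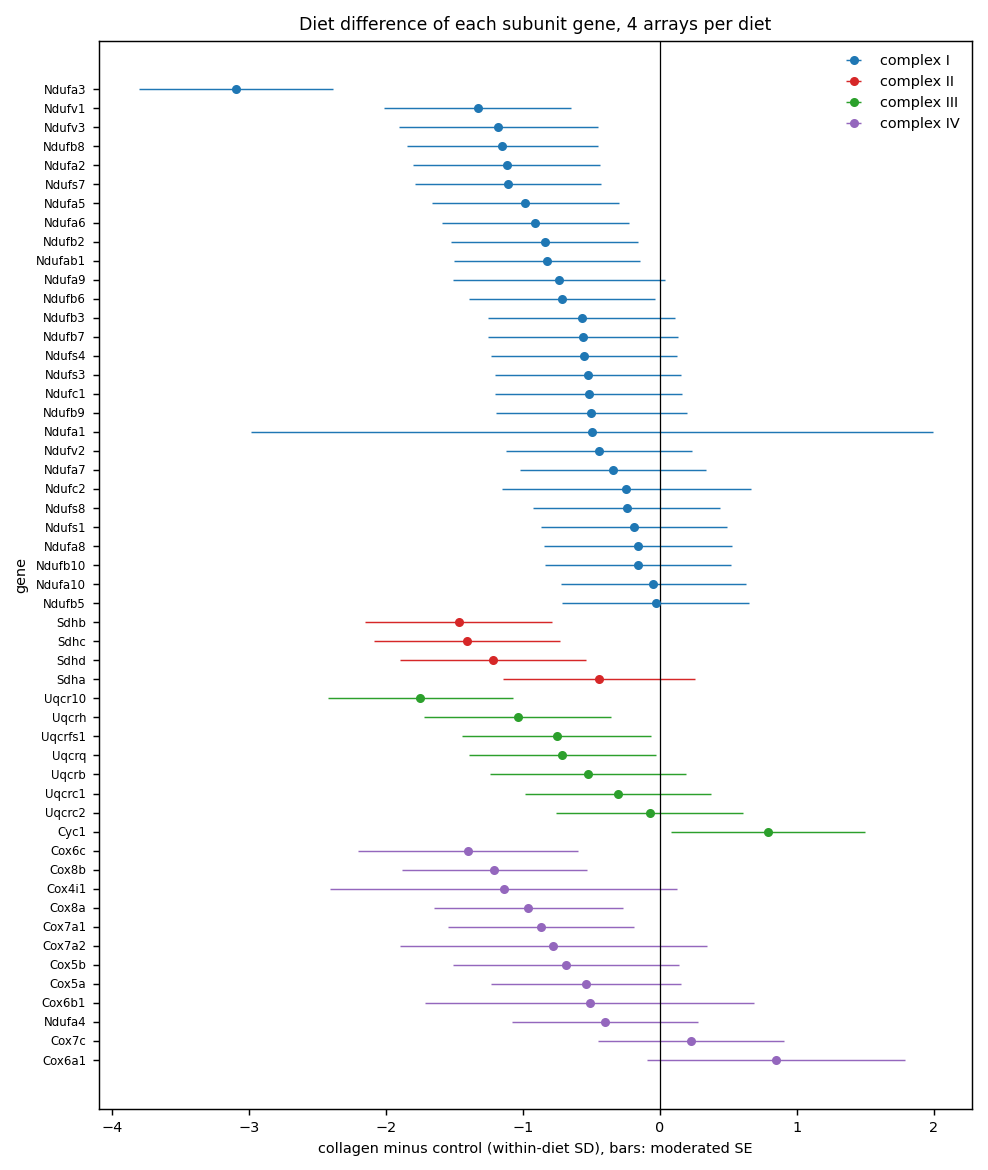
Collagen minus control for each of the 52 subunit genes in units of the within-diet SD (horizontal axis; point), with the moderated SE of limma as the bar, grouped and coloured by complex, n = 4 arrays per diet. Of the points, 49 lie left of 0 on the deposited scale (2 of 52 after median centring, against 5.38% of all genes). Ndufa3 lies farthest left, and most bars are wide beside their distance from 0.

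The subunit genes moved together over the arrays, across complexes as well as within them. Over 1326 pairs of subunit genes the median Pearson r over the 8 arrays was 0.631, and 83.1% of pairs lay above 0, against a median of 0.007 and 50.6% over pairs of all genes and a median of 0.016 over pairs of genes of similar level. The median was 0.634 over 478 pairs within a complex and 0.627 over 848 pairs across complexes, and 0.613 over all pairs when each diet's own mean was removed. These pairs share the same 8 arrays, so the values describe these arrays and carry no test. Quantile normalization left 10 of the 52 genes with any variation and gave a median of -0.149 over their 45 pairs, while median centring gave 0.996. Without control 4 the median was 0.52, and without control 4 and collagen 1 it was 0.418.

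By complex, the median r within complex I was 0.643, within complex II 0.648 (6 pairs), within complex III 0.669 and within complex IV 0.308. Complex IV thus had the lowest median, and it was also lower within diets (0.145). Pairs between complexes gave 0.674 for I with III, 0.677 for II with III, 0.614 for I with II, 0.586 for I with IV, 0.571 for II with IV and 0.534 for III with IV. Among the scores of the complexes by array, I and III correlated at r = 0.977 (rho = 1.0 over 8 arrays, 0.955 without collagen 1 and control 4) and II and IV at r = 0.862 (0.506 without them).

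**Figure D4:**
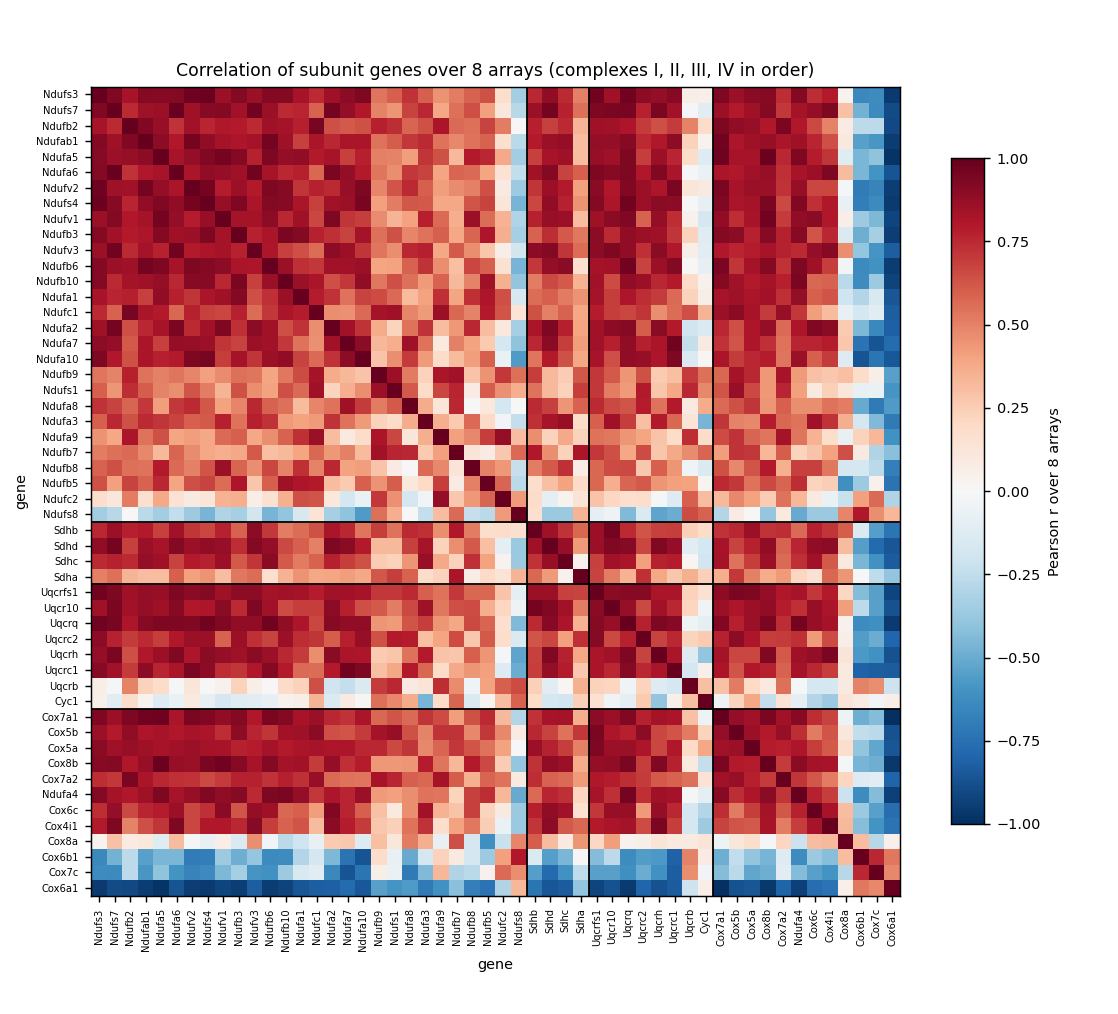
Pearson r over the 8 arrays between each pair of the 52 subunit genes (colour from -1 to 1), ordered by complex and within a complex by the correlation with the other genes, with lines between complexes. The blocks between complexes I, II and III are about as red as those within them (medians from 0.614 to 0.677), the blocks with complex IV are paler (0.534 to 0.586 with the others), and the blue stripes are Cox6a1, Cox7c, Cox6b1 and Ndufs8.

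Set against the mean of the other subunit genes, 44 of the 52 had an r above 0.5 and 29 an r above 0.8. These 44 were 26 of 28 in complex I, 4 of 4 in complex II, 6 of 8 in complex III and 8 of 12 in complex IV. The highest was Uqcrfs1, the Rieske iron-sulfur protein of complex III (r = 0.978), followed by Ndufs3, a core subunit of complex I, and Cox7a1 (each 0.942). Cox5b (0.936) and Cox5a (0.933), subunits on the matrix side of complex IV, were close to them. An r of this size did not need a large range, since Cox5b varied by 1.4e-06 and Cox7a1 by 0.00935.

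An r below 0 was found in 4 genes, named here after their values were seen: Cox6a1 (-0.956), Cox7c (-0.482), Cox6b1 (-0.394) and Ndufs8 (-0.119). Cox6a1, the non-muscle form of subunit VIa, lay at 0.345, -0.215, -0.255 and -0.435 millionths in the control arrays and at 0.495, -0.265, 0.065 and 0.265 in the collagen arrays. It was highest in collagen 1 and lowest in control 4, the reverse of most subunit genes, and its r with Cox7a1 was -0.993. Its muscle-type counterpart Cox6a2, which is not among the 54 genes, correlated with Cox7a1 at r = 0.975 and with Cox6a1 at r = -0.977. The range of Cox6a1 was 9.3e-07, against 0.00429 for Cox6a2.

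Further probe sets changed this picture for several of these genes. The 52 genes had 116 probe sets, 18 genes with 1 and 34 with several. Of the 64 that were not used above, 50 lay at or above the median level of all probe sets. In these 50 the mean was lower with collagen in 44 as deposited and in 0 after median centring (47.1% and 5.38% of all genes). Of the 50, 36 had an r above 0.5 with the other subunit genes, and the median r was 0.752. The 14 dimmer ones had a median r of -0.077. For Ndufs8, which carries iron-sulfur clusters of complex I, probe sets at levels of 12.29 and 11.23 gave r = 0.96 and 0.968, against -0.119 for the probe set used. However, the Ndufs8 probe set nearest in level to the one used, at 12.67, gave r = 0.038 and followed the one used at 0.942, and those at 9.922 and 11.30 gave r = 0.0221 and 0.826. For Cox6a1 a second probe set at 12.75 gave r = 0.519, for Uqcrb one at 12.11 gave 0.774 against 0.272, and for Cox6b1 one at 12.90 gave 0.41 against -0.394. The probe set used for Cox7c lay at 8.456, near the median level of all probe sets, 8.193. Its only other probe set, at 7.748, gave r = -0.516 against -0.482, so no bright probe set of Cox7c was at hand.

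Other genes of oxidative metabolism were counted by lists. Beside these counts, 47.1% of all genes were lower with collagen as deposited and 5.38% after median centring. Of 15 measured ATP synthase genes (16 named), 14 were lower as deposited (0 after median centring) with a median of -0.897 SD. By unadjusted limma p the first were Atp5k (-1.74 SD, exact permutation p = 0.0571) and Atp5l (-1.27 SD, exact permutation p = 0.114). Atp5a1 (-1.54 SD) had an exact permutation p of 0.0857. The ATP synthase score followed the score of 50 subunit genes (without Cox7a1 and Cox8b) at r = 0.979 over the 8 arrays (0.95 without collagen 1 and control 4). Of 11 measured other complex I to IV subunits (13 named), 8 were lower as deposited (1 after median centring) with a median of -0.603 SD, with Ndufa13 at -1.56 SD (exact permutation p = 0.0571) and Cox6b2 at -1.29 SD (p = 0.143). 

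Assembly factors, which help to build the complexes without being part of them, were split as deposited. Of 40 measured (42 named), 19 were lower (0 after median centring) and 21 higher, with a median of 0.00892 SD. The smallest unadjusted limma p were those of Foxred1 (1.31 SD, exact permutation p = 0.114) and Sdhaf1 (1.23 SD, exact permutation p = 0.171). By the exact permutation test Ndufaf7 had the smallest p (1.43 SD, p = 0.0857). Their score still followed the subunit score (r = 0.747, and 0.936 within diets). Of 12 measured citric acid cycle genes (13 named), 7 were lower (1 after median centring) and 5 higher, with a median of -0.164 SD and r = 0.78. Suclg2 (-1.3 SD, exact permutation p = 0.0857) and Dld (0.888 SD, exact permutation p = 0.286) had the smallest unadjusted limma p. Of 13 regulators of mitochondrial biogenesis, 4 were lower (1 after median centring) and 9 higher, with a median of 0.686 SD. Ppargc1b, a coactivator of these genes, lay lower with collagen without overlap between diets as deposited (-2.67 SD, exact permutation p = 0.0286) but at 0.451 SD after median centring, and Tfb2m, a mitochondrial transcription factor, lay at 1.43 SD (p = 0.171). None of the genes on these lists passed an adjusted p of 0.05 (0.999 for each, limma).

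Skeletal muscle is rich in mitochondria, and most of its markers varied over the arrays with the subunit genes. All 24 markers were measured, with levels from 7.514 (Myl2) to 13.99 (Acta1). Their r with the score of all 52 subunit genes, Cox7a1 and Cox8b included, was above 0.5 for 16. It was below 0 for 6 (Tnni1, Tnnc1, Myh7, Tnnt1, Myl3 and Myh4), of which all but the fast myosin Myh4 are slow-fibre genes. These slow-fibre genes lay at levels from 8.031 (Myl3) to 8.27 (Tnnc1), close to the median level of all probe sets, 8.193. Of the 24 markers, 18 were lower and 6 higher with collagen as deposited (median -0.724 SD), and 16 were lower after median centring. Over all genes 47.1% were lower as deposited and 5.38% after median centring. A single marker, Casq1, had an unadjusted limma p under 0.05 (-1.69 SD, exact permutation p = 0.0857). The muscle score was -0.498, 0.31, 0.144 and 0.979 in the control arrays and -0.635, -0.0559, 0.234 and -0.477 in the collagen arrays. Like the subunit score, it was highest in control 4 and lowest in collagen 1. The subunit score of 50 genes correlated with it at r = 0.867 (rho = 0.786, 8 arrays), 0.83 within diets, and 0.555 without collagen 1 and control 4. By complex this r was 0.87 for complex I, 0.879 for II, 0.893 for III and 0.718 for IV, and without collagen 1 and control 4 it was 0.616, 0.558, 0.622 and 0.156. For single isoforms it was 0.869 for Cox7a1 and 0.827 for Cox8b against 0.652 for Cox7a2 and 0.111 for Cox8a, and without these 2 arrays 0.77 and 0.778 against 0.276 and -0.709. The part of muscle in the diet difference of the subunit genes was not tested.

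**Figure D5:**
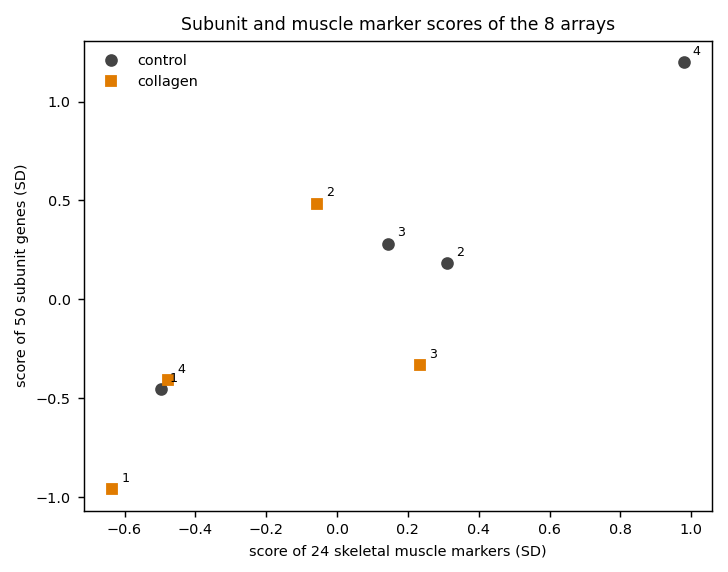
Score of 24 skeletal muscle markers (horizontal axis, SD) against the score of 50 subunit genes without Cox7a1 and Cox8b (vertical axis, SD) in the 8 arrays, control arrays as grey circles and collagen arrays as orange squares, with replicate numbers. The points run from collagen 1 at the lower left to control 4 at the upper right (r = 0.867, and 0.555 without these 2 arrays).

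For markers of other cell types, r with the subunit score of 50 genes over the 8 arrays was 0.22 for keratinocytes, -0.138 for fibroblasts, 0.157 for brown or beige fat, 0.0196 for white fat, -0.594 for sebocytes and -0.183 for macrophages. These values, too, rest on single arrays. Without the 2 arrays farthest from the median of the marker score, they were -0.231, -0.591, 0.0807, 0.556, -0.736 and 0.271. Which 2 arrays are left out depends on the list. For white fat (0.556) they are collagen 2 and collagen 4, and for muscle (0.555) collagen 1 and control 4. These values are therefore not set against each other. Of the measured markers, 6 of 6 were lower with collagen as deposited for fibroblasts (median -0.801 SD; 2 of 6 after median centring), 3 of 3 for macrophages (-0.427 SD; 2 of 3) and 3 of 4 for white fat (-0.189 SD; 1 of 4). For keratinocytes 2 of 7 were lower (median 0.553 SD; 0 of 7 after median centring), for brown or beige fat 1 of 5 (0.347 SD; 0 of 5) and for sebocytes 1 of 2 (0.181 SD; 1 of 2). Over all genes 47.1% were lower as deposited and 5.38% after median centring. Krt14, a keratin of basal keratinocytes named after its values were seen, was higher without overlap between diets, as were 1.35% of all genes. It lay at 1.86 SD (exact permutation p = 0.0286, limma p = 0.349 unadjusted and 0.999 adjusted), and its range over the 8 arrays was only 5.7e-07. Ucp1, the defining gene of brown fat, lay at 7.629, under the median level of all probe sets. In these 6 lists the only gene at an unadjusted limma p under 0.05 was Dio2, which makes active thyroid hormone (-1.91 SD, exact permutation p = 0.0286, but 0.35 SD after median centring). The keratinocyte score ran from -0.793 to 0.417 in control and from -0.496 to 1.62 in collagen arrays, and the fibroblast score from -0.485 to 0.882 and from -1.48 to 0.69. The part of these cell types in the results was not tested.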

How the data were processed

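Total RNA from powdered dorsal skin was labelled with biotin and put on 1-colour mouse expression arrays, as the labels' protocols state. The authors deposited log2 values in 1 table, a scale read from the values. The submitters' processing notes name R 2.7.2, while the sources used here do not give the summary method, the normalization or the genome build. Values were used as deposited, without the 64 control probe sets. Of the 45037 others, 34945 carried 1 gene symbol, 932 several and 9160 none. By Entrez identifier 18031 of the genes were found in a RefSeq gene table (GRCm38.p6), which changed 0 symbols.

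Each of 18193 genes was fitted in limma 3.58.1 (R 4.3.3; lmFit, eBayes) as collagen minus control, two-sided, with 4 arrays per diet and no covariate, with Benjamini-Hochberg adjustment over all genes and a threshold of 0.05. Values were multiplied by 1e+06 first, which changes no t statistic. The prior degrees of freedom were 0.4883. A score is the mean over a list's genes of their deviation in SD over the 8 arrays. Promoters are from RefSeq (build GRCm38.p6). Figures were drawn with matplotlib 3.10.9. For single genes an exact two-sided permutation test over the 70 assignments of arrays to diets was added after the data were seen; its p are not adjusted, and 0.0286 is the smallest it can give. The fit and the correlations were tested on simulated data. In 10 simulations with 200 of 18193 genes changed, the fit recovered 2.54% of genes shifted by 2 SD. It recovered 29% at 4 SD and 93.5% at 8 SD. A count of 0 genes past the threshold therefore does not show that smaller shifts are absent.

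The subunit genes and all lists were chosen with earlier results of these data known, so no list was tested. Values in each array are given for the 3 genes per complex with the smallest unadjusted limma p, for complex II and for the pairs Cox7a1 and Cox7a2, Cox8b and Cox8a. For each related list the 2 genes with the smallest unadjusted limma p are named. Genes picked in this way need not have the smallest exact permutation p. Cox6a1 and the other genes with an r below 0 were named after their values were seen, as were genes named at the ends of a range. Without stated animals per array, p-values measure the spread between these arrays. Alternatives were quantile normalization, median centring, a dim filter at 8.193, the mean or the most variable probe set per gene, eBayes with trend and robust, the replicate number as a block, each array left out, and control 4 with collagen 1 left out.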

Additional observations from a re-analysis of the deposited data

Results flagged for a closer look

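In 40 groups of 4 arrays (the genes given array by array under the naming rule and the 5 scores, in each diet), the gap of the highest or lowest array to its neighbour was divided by the range of the group and set against Dixon's critical value for 4 values. It was beyond that in 2 groups, and chance alone gives about 1 in 20. Both were control 1 as the lowest control array: Cox8b with a ratio of 0.856 (-986 millionths, against 1300 to 1680 in the other controls) and Cox6c with 0.892 (-0.178, against 0.483 to 0.563). Control 1 also had the lowest muscle score of the controls (-0.498); its part in these values was not tested. Without control 1 the difference of Ndufa3 was -8.21 SD and 8 subunit genes had an unadjusted limma p under 0.05, against 2 with all arrays; over all 18193 genes the counts were 1113 and 635.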

How the results depend on the processing

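The choice of scaling decided the direction of the subunit genes. The array medians differ by up to 0.000331, with collagen 1 lowest, which is more than the range of 49 of the 52 subunit genes, so median centring adds this shift to each gene: 5.38% of all genes were then lower with collagen, against 47.1% as deposited, and 35.6% after quantile normalization. After median centring 2 of 52 subunit genes were lower, and the median difference was 0.48 SD, against 0.494 SD over all genes. The scores differed by 0.397 (all subunit genes), 0.447 (complex I), 0.32 (II), 0.461 (III) and 0.265 (IV). The median r of pairs was 0.996 (all), 0.997 (same complex) and 0.996 (different complexes). Single genes then lay at 0.466 SD (Ndufa3), 0.46 (Ndufv1), 0.483 (Ndufb8), 0.434 (Sdhb), 0.133 (Sdhc), 0.159 (Sdhd), 0.49 (Sdha), 0.239 (Uqcr10), 0.446 (Uqcrh), 0.489 (Cox6c), 0.475 (Cox8a) and 0.492 (Cox7a2). Quantile normalization gave 42 of 52 subunit genes (80.8%, against 12.2% of all genes) 1 value in all 8 arrays. Of the other 10, 3 were lower, with a median of 0.382 SD, scores of 0.0638 (all), 0.434 (complex I) and -0.0328 (IV; II and III could not be scored), Sdhd at 0.463 SD, and a median r of -0.149 (all), -0.0926 (same complex) and -0.195 (different complexes).

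The mean of all probe sets gave Cox6c 0.39 SD and median r of 0.727 (all) and 0.775 (same complex), and the most variable probe set gave Cox6c 0.416 SD; the cause was not tested. Leaving out each array gave 38 to 49 lower genes, medians from -1.14 to -0.315 SD, r from 0.52 to 0.675 (all), 0.558 to 0.685 (same) and 0.483 to 0.672 (different), 0 genes past the threshold, and Sdha from -1.12 to 0.131 SD. Other single genes kept their sign but moved widely, as Ndufa3 (-8.21 to -2.76 SD), Ndufv1 (-2.39 to -1.08), Ndufb8 (-1.87 to -0.835), Sdhc (-3.23 to -1.13), Sdhd (-2.28 to -0.915), Uqcrh (-1.72 to -0.694), Cyc1 (0.335 to 1.9), Cox8a (-1.68 to -0.632) and Cox7a2 (-1.55 to -0.396). Without control 4 and collagen 1, chosen after the data were seen, 30 genes were lower, r was 0.418 (all), 0.5 (same) and 0.388 (different), Sdha lay at 0.548 SD, and 1 gene passed limma's adjusted threshold, D17H6S56E-5, which is no subunit gene. At an unadjusted p under 0.05 stood 635 genes and 2 subunit genes, 1552 and 1 without collagen 4, and 1113 and 8 without control 1. With the replicate block it was 1110 and 11, with 49 lower and a median of -0.859 SD. Same-numbered arrays of the 2 diets correlated at 0.362, 0.0486, 0.215 and 0.0111 in their deviations over all genes. Differently numbered arrays correlated at -0.283 to 0.175. The labels state no pairing, and whether the numbers stand for one was not tested. The dim filter and the trend and robust fit changed neither the 49 lower genes nor the count of 0. Signal over background is unknown, and ranges near the 8th decimal of the table limit genes such as Ndufa1.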

Other observations

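The factors whose letters were sought in the promoters differed among themselves in how their own genes varied with the subunit genes; they were picked out after their values were seen. The r with the score of all 52 subunit genes over the 8 arrays was -0.737 for Nrf1, -0.708 for Gabpa and -0.763 for Yy1. It was 0.328 for Gabpb1, the other GABP subunit, and 0.576 for Esrra, which encodes an estrogen-related receptor. For Nrf1, Gabpa, Yy1 and Esrra the diet differences were 0.686, 0.725, 0.724 and -0.523 SD (exact permutation p = 0.371, 0.4, 0.314 and 0.514, unadjusted), and Esrra lay at 0.465 SD after median centring. For the score of all 13 biogenesis regulators r was -0.543, and -0.0847 without collagen 1 and control 1, so that relation rests on these arrays.

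The YY1 letters lay after the start in the 4 subunit genes whose promoters hold them. Where they lie in the 443 genes with YY1 letters in all was not examined, so no trait of subunit genes is read from this. In Ndufc1, Ndufs7, Ndufa9 and Ndufs4 the match began 23, 25, 30 and 36 bases after the start. The 7 genes with NRF1 letters ranged in their r with the other subunit genes from -0.956 (Cox6a1) to 0.914 (Ndufa5 and Ndufa6).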
